A study of Mus musculus with 4 samples.

Results

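The heat shock list comprised 10 genes, Hspa1a, Hspa1b, Hspa8, Hsph1, Dnajb1, Hspb1, Hsp90aa1, Hsp90ab1, Hspd1 and Hspe1, found by symbol among the 21959 gene IDs of the deposited table. All 10 had 1 gene ID each and all 10 had enough counts to be tested, among 12657 tested genes. The series sequenced liver RNA from wild-type mice in a model of acute-on-chronic liver failure, in which acute injury comes on top of chronic liver disease, and holds 4 livers. Of these, 2 livers came from mice given baicalein, a plant flavone, and 2 from mice given saline, so acute-on-chronic liver failure is shared by both groups and no healthy liver was analysed here. The labels give no dose, time, age or sex, and do not say that each liver came from its own animal. The p-values thus reflect the spread of these samples alone, part of which could be technical.

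Heat shock proteins are chaperones that bind unfolded or partly folded proteins. The HSP70 proteins hold short exposed stretches of a client in a cycle driven by ATP, in which J-domain proteins start the hydrolysis and HSP110 proteins release the ADP, and clients can then pass to HSP90. Small heat shock proteins bind clients without ATP. Many of these genes are driven by heat shock factor 1, a transcription factor that binds inverted repeats of GAA as a trimer and responds to heat and to other causes of protein damage. Hspd1 and Hspe1 encode the chaperonin and co-chaperonin of the mitochondrial matrix, so the working name of the list, cytosolic heat shock proteins, covers 8 of its 10 genes.

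Hspa1a and Hspa1b are neighbouring copies on the minus strand of mouse chromosome 17, at 34969190 to 34972156 and 34956436 to 34959238 (GRCm38, GENCODE M21 annotation), with 9951 bases between them. Hspd1 and Hspe1 lie head to head on chromosome 1, at 55077835 to 55088243 on the minus strand and 55088132 to 55091307 on the plus strand, and share 112 bases. The other genes are Hspa8 on chromosome 9 (40800984 to 40810087), Hsph1 on chromosome 5 (149614287 to 149636376), Dnajb1 on chromosome 8 (83608193 to 83612653), Hspb1 on chromosome 5 (135887919 to 135889563), Hsp90aa1 on chromosome 12 (110690605 to 110702728) and Hsp90ab1 on chromosome 17 (45567775 to 45573271).

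RefSeq promoter windows (GRCm38.p6, 250 bases before to 50 after a start) matched 7 of the 10 genes by symbol, with 10 windows. The genes without a match were Hspa8, Hsp90aa1 and Hsp90ab1. Starts named below are the RefSeq starts of these windows, which can lie inside the GENCODE spans given above. Each window was searched for the 2 forms of the paired heat shock element, GAANNTTC and TTCNNGAA, which each read the same on both strands. Stretches are shown because they separate the genes by the shape of the element, 5′ to 3′ on the strand of the gene, with every match of either form in capitals.
Hspa1b, chr17:34959279-34959358, minus strand: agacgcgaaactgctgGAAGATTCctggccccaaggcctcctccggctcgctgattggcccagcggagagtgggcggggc
Hspa1a, chr17:34972197-34972276, minus strand: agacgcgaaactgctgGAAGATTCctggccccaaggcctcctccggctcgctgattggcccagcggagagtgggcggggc
Hspb1, chr5:135887784-135887843, plus strand: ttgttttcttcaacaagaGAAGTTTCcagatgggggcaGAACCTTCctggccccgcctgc
Hspd1, chr1:55088043-55088097, minus strand: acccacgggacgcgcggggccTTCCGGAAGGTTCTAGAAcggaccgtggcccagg
Hspe1, chr1:55088038-55088092, plus strand: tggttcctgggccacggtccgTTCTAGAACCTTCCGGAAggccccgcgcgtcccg
Hsph1 upstream of the start, chr5:149636337-149636396, minus strand: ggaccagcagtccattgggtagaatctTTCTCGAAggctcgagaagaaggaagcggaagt
Hsph1 downstream of the start, chr5:149636287-149636305, minus strand: gcagaTTCTGGAAAGTTCt

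The windows of Hspa1a and Hspa1b were identical at 296 of 300 bases, and each held a single paired element that began 104 bases before the start. Hspb1 had 2 separate paired elements, beginning 117 and 97 bases before its start. Hspd1 and Hspe1 shared 1 element of overlapping repeats, read from opposite strands. It began 144 bases before a downstream Hspd1 start and 89 bases before the Hspe1 start. The element lay inside the Hspd1 span given above, and the window at the 5′ end of that span held no paired element. Hsph1 had 1 paired element 33 bases before the upstream of its RefSeq starts and overlapping repeats beginning at base 37 after it. Both lay inside the Hsph1 span given above, whose 5′ end is further upstream. In all, 6 of the 7 genes held a paired element, as did 17% of the 27025 genes in the promoter table (15.1% of 32851 windows). An element of 3 repeats (GAANNTTC followed by NNGAA, or TTCNNGAA followed by NNTTC, which cover both strands and overlap the paired forms) was present for Hsph1, Hspd1 and Hspe1, and for 0.662% of all genes. Dnajb1 had no match to these letters in its windows. These matches describe letters in a window, not binding.

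Read counts summed to 14766061 and 18731616 in baicalein livers 1 and 2, against 17673137 and 13976440 in saline livers 1 and 2. The 4 livers also differed in several sets of marker genes. The 12 skeletal muscle markers summed to 4.33 and 1713 CPM (counts scaled to the TMM-normalised library size) in baicalein livers 1 and 2, against 6372 and 4.52 CPM in saline livers 1 and 2. In baicalein 1 and saline 2, 6 of the 12 were at 0 in both, among them Ckm and Myh4. The 4 Y-linked genes had 2 counts and 1 count in baicalein livers, against 820 and 836 in saline livers. Such a pattern is that of female against male livers, although the labels give no sex. The Y-linked pattern, and sex with it, cannot be told apart from the treatment in the comparisons below. Of 11 circadian clock genes 8 were called higher and 3 lower in baicalein livers (edgeR, adjusted p below 0.05). Of 8 immediate early genes 4 were called lower, where 7.65% of all tested genes were called higher and 7.9% lower. Hepatocyte markers were abundant in all 4 livers, with Alb at 53157 to 87778 CPM. Of 6 tested, Alb (log2 fold change 0.57, adjusted p = 0.0237) and Cps1 (0.60, adjusted p = 0.00708) were called higher in baicalein livers by edgeR, Serpina1c was called lower (-0.48, adjusted p = 0.0257), and Apoa1 (-0.49), Fgb (-0.25) and Ttr (-0.08) did not pass. The part of the clock, immediate early and hepatocyte lists in the values below was not tested.

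Baicalein livers had more RNA of 2 of the 10 genes, Hspa8 and Hsph1, which encode the constitutive cytosolic HSP70 and an HSP110 partner. The 2 genes rose 1.44-fold and 1.84-fold. The 2 stress-inducible HSP70 genes Hspa1a and Hspa1b, the J-domain gene Dnajb1, both HSP90 genes, the small heat shock gene Hspb1 and the mitochondrial pair Hspd1 and Hspe1 did not pass at an adjusted p of 0.05 (edgeR quasi-likelihood test, Benjamini-Hochberg over 12657 genes). Across all tested genes 7.65% were called higher and 7.9% lower. No member was called lower by edgeR, and DESeq2 called 1 lower. At an unadjusted p below 0.05 with edgeR, 2 members were higher and 3 lower. The share of all tested genes past that unadjusted level was not computed, so these 2 counts have no background to be read against. The median log2 fold change of the 10 was -0.15, against 0.01 over all tested genes.

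**Figure D1:**
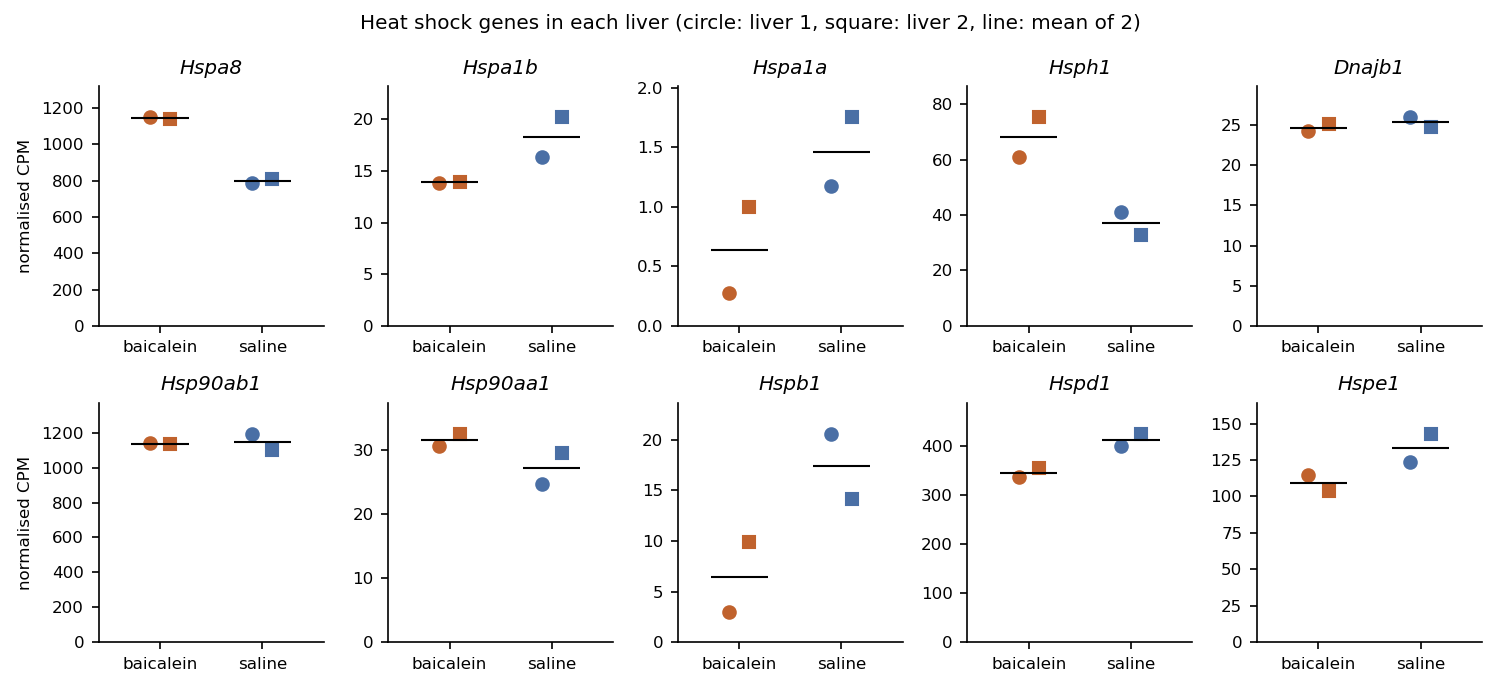
Normalised CPM (y axis, from 0, a different range in each panel) of the 10 heat shock genes in baicalein livers (orange, left) and saline livers (blue, right). Circles are liver 1, squares liver 2 and lines the mean of 2; Hspa8 and Hsph1 are higher in both baicalein livers, and Hsp90ab1 and Dnajb1 have overlapping groups.

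Hspa8 encodes HSC70, the HSP70 made in unstressed cells, which also strips clathrin from vesicles and delivers proteins to chaperone-mediated autophagy. Its counts were 16690 and 22851 in baicalein livers and 13368 and 11080 in saline livers. Normalised, these were 1148 and 1140 CPM in baicalein livers, against 786 and 808 CPM in saline livers. The 2 livers of each group lay close together and the groups did not overlap, as held for 59.2% of all tested genes. The log2 fold change was 0.52 (SE 0.10, unadjusted 95% interval 0.30 to 0.75, adjusted p = 0.00854, edgeR). It was 0.51 for baicalein 1 over saline 2, the livers with little muscle RNA, and 0.54 for baicalein 2 over saline 1, the livers with more of it (on log2 CPM with a prior count of 2). Without saline 1 or saline 2 the log2 fold change was 0.49 or 0.53 and the call was lost (adjusted p = 0.204 and 0.212, edgeR). Over the 12 alternatives the adjusted p ran from 7.34e-13 to 0.212. In bulk tissue, a change in the share of a cell type and a change of RNA per cell cannot be told apart.

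Hsph1 encodes HSP105, an HSP110 protein that acts as nucleotide exchange factor for HSP70 and works with it to dissolve aggregates. Its counts were 886 and 1508 in baicalein livers and 699 and 451 in saline livers. That was 60.9 and 75.2 CPM in baicalein livers, against 41.1 and 32.9 CPM in saline livers. Both baicalein livers were above both saline livers, with more spread within a group than for Hspa8. The log2 fold change was 0.88 (SE 0.15, unadjusted 95% interval 0.51 to 1.25, adjusted p = 0.0121, edgeR). It was 0.89 between the livers with little muscle RNA and 0.87 between those with more. The call held with any 1 liver left out, at log2 fold changes of 0.72 to 1.04. It was lost in 1 of the 12 alternatives, whose adjusted p ran from 1.53e-11 to 0.0981.

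The inducible HSP70 genes did not follow Hspa8. Hspa1b had 13.8 and 14.0 CPM in baicalein livers, against 16.3 and 20.2 CPM in saline livers. The groups did not overlap, and the log2 fold change was -0.39 (SE 0.14, unadjusted 95% interval -0.72 to -0.07), which did not pass after adjustment (adjusted p = 0.105, edgeR). Hspa1a was nearly silent, with 4 and 20 counts in baicalein livers and 20 and 24 counts in saline livers. The 4 counts of baicalein 1 have an exact 95% Poisson interval of 1.09 to 10.2, which covers counting error only. Its log2 fold change was -1.15 (SE 0.67, unadjusted 95% interval -2.67 to 0.36, adjusted p = 0.292, edgeR).

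The coding parts of Hspa1a and Hspa1b are near-identical. The sources used here do not say how shared reads were counted, so the split between the copies is uncertain. Hspa1a received 1.95% and 6.67% of the pair's counts in baicalein livers, against 6.71% and 7.97% in saline livers. Summed, the pair had 14.1 and 15.0 CPM in baicalein livers, against 17.5 and 22.0 CPM in saline livers. The sum was lower in both baicalein livers, and the log2 fold change of -0.44 (SE 0.15, unadjusted 95% interval -0.77 to -0.11) fell short of the threshold (adjusted p = 0.0783, edgeR). It ran from -0.60 to -0.28 with 1 liver left out.

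Dnajb1 encodes an HSP40, the J-domain partner that brings clients to cytosolic HSP70 and is itself a target of heat shock factor 1. It had 24.3 and 25.1 CPM in baicalein livers, against 26.0 and 24.7 CPM in saline livers. The groups overlapped and the log2 fold change was -0.04 (unadjusted 95% interval -0.29 to 0.21, adjusted p = 0.862, edgeR). The interval leaves out a change of the size estimated for Hspa8. With library totals in place of TMM the log2 fold change was 0.05.

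Both HSP90 genes encode dimeric chaperones of kinases and steroid receptors, Hsp90ab1 the constitutive form and Hsp90aa1 the more inducible one. Hsp90ab1 had 1137 and 1135 CPM in baicalein livers, against 1193 and 1103 CPM in saline livers. The baicalein livers lay between the saline livers, with a log2 fold change of -0.01 (unadjusted 95% interval -0.25 to 0.22, adjusted p = 0.945, edgeR) that was 0.04 without saline 1 and 0.07 with library totals. Hsp90aa1 had 30.7 and 32.5 CPM in baicalein livers, against 24.7 and 29.6 CPM in saline livers. Its groups were close without overlapping, and the log2 fold change of 0.22 (unadjusted 95% interval -0.06 to 0.50) did not pass (adjusted p = 0.272, edgeR).

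Hspb1 encodes the small heat shock protein that binds unfolded clients and actin filaments, and its level varied widely among the 4 livers. It had 43 and 199 counts in baicalein livers, against 350 and 194 counts in saline livers. Normalised, this was 2.96 and 9.93 CPM in baicalein livers, against 20.6 and 14.1 CPM in saline livers. Both baicalein livers were lower, and baicalein 1 stood lowest. The log2 fold change was -1.42 with a wide error (SE 0.82, unadjusted 95% interval -4.51 to 1.68, adjusted p = 0.419, edgeR). Within each group the liver with more muscle RNA had the higher value. Between the livers with little muscle RNA the difference was -2.21 on the log2 scale, and between those with more it was -1.04. Hspb1 was called lower in 2 of the 12 alternatives, whose adjusted p ran from 2.45e-04 to 0.736. One of them left out baicalein 2 (log2 fold change -2.55, adjusted p = 0.00844, edgeR), and without baicalein 1 the log2 fold change was -0.82.

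The mitochondrial chaperonin genes had fold changes of similar size. Hspd1, encoding HSP60, the barrel in which imported proteins fold, had 336 and 354 CPM in baicalein livers, against 399.5 and 424 CPM in saline livers. Hspe1, encoding its lid HSP10, had 115 and 104 CPM in baicalein livers, against 124 and 143 CPM in saline livers. For both genes the baicalein livers were below the saline livers. The log2 fold changes were -0.25 for Hspd1 (SE 0.10, unadjusted 95% interval -0.48 to -0.03, adjusted p = 0.128, edgeR) and -0.29 for Hspe1 (SE 0.11, unadjusted 95% interval -0.54 to -0.03, adjusted p = 0.124, edgeR). DESeq2 called Hspd1 lower (adjusted p = 0.0149). These are the 2 genes that share the promoter element printed above. Their 5′ parts overlap, and the sources used here do not say whether counting used strand, so reads in the shared 112 bases may have gone to either gene. A retrogene copy of Hspe1 is also annotated in the table, and reads shared with it may have been split.

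**Figure D2:**
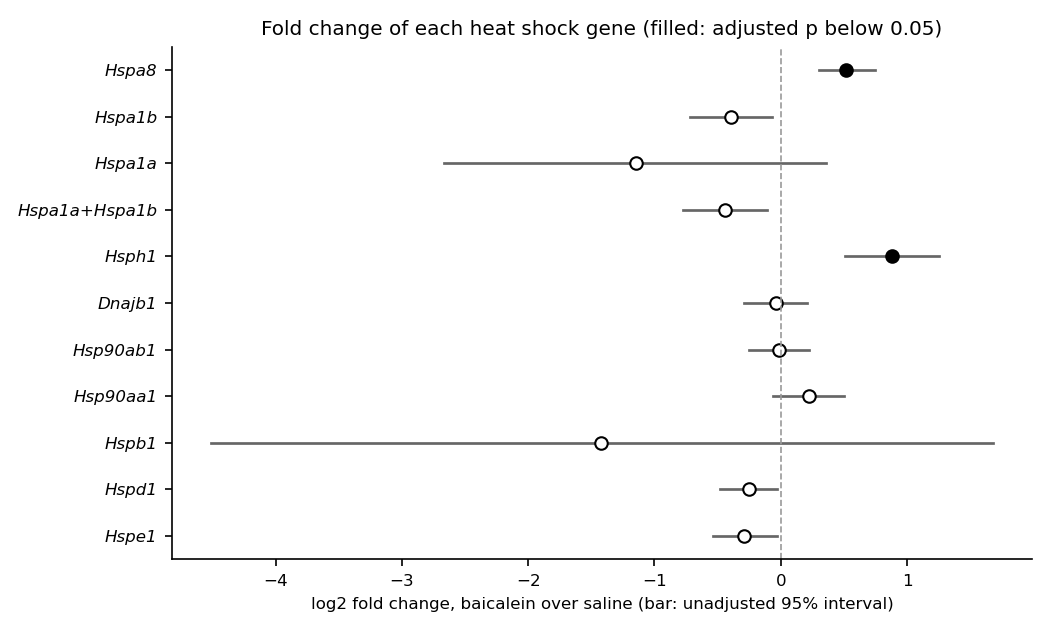
Log2 fold change, baicalein over saline (x axis), of each heat shock gene and of the summed counts of Hspa1a and Hspa1b (rows). Points are edgeR estimates, filled where the adjusted p is below 0.05, and bars are unadjusted 95% intervals; Hspa8 (0.52) and Hsph1 (0.88) are the filled points, and the Hspb1 interval (-4.51 to 1.68) is the widest of the 11 rows.

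Of the 10 genes, 3 had higher values in both baicalein livers and 5 had lower values in both, where 29.7% and 29.5% of all tested genes did so. The order of the 10 by level per gene length (FPKM, the deposited value) was headed by Hsp90ab1, at 361 to 405 FPKM over the 4 livers, then Hspa8 at 176 to 284 FPKM. Hspd1 followed at 125 to 157 FPKM and Hspe1 at 75.2 to 95.1 FPKM, and none of these 4 ranges overlapped its neighbour. Hspb1, Dnajb1, Hsp90aa1, Hsph1 and Hspa1b came next, with means of 5.72 to 11.5 FPKM and ranges that overlapped from each to the next. Hspa1a was last, at 0.0913 to 0.579 FPKM. Hspa8 and Hsp90ab1 together took 79.7% and 78.7% of the counts of the 10 genes in baicalein livers, against 75.2% and 73.5% in saline livers. All 10 genes made up 0.283% and 0.309% of the library in baicalein livers, against 0.253% and 0.255% in saline livers.

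Ratios between members within a liver need no scaling. Hspa8 had 1.01 and 1.00 counts for each count of Hsp90ab1 in baicalein livers, against 0.659 and 0.733 in saline livers. The count ratio of Hsph1 to Hsp90ab1 was 0.0536 and 0.0663 in baicalein livers, against 0.0344 and 0.0298 in saline livers. The ratio of Hspa1b to Hspa8 was 0.0120 and 0.0123 in baicalein livers, against 0.0208 and 0.0250 in saline livers. In FPKM, Hspa8 stood 54.1 and 53.2 times above Hspa1b in baicalein livers, against 31.3 and 26.1 times in saline livers. None of these ratios overlapped between groups, where 59.2% of single tested genes did not overlap either. The ratios rest on the same counts as the tests above, and the share among all possible ratios was not computed. Hspd1 to Hspe1 overlapped, at 2.92 and 3.42 counts in baicalein livers and 3.23 and 2.97 in saline livers, as did Dnajb1 to Hsp90ab1, at 0.0213 and 0.0221 against 0.0218 and 0.0224. A ratio shows unequal change of 2 genes and not which of them changed.

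**Figure D3:**
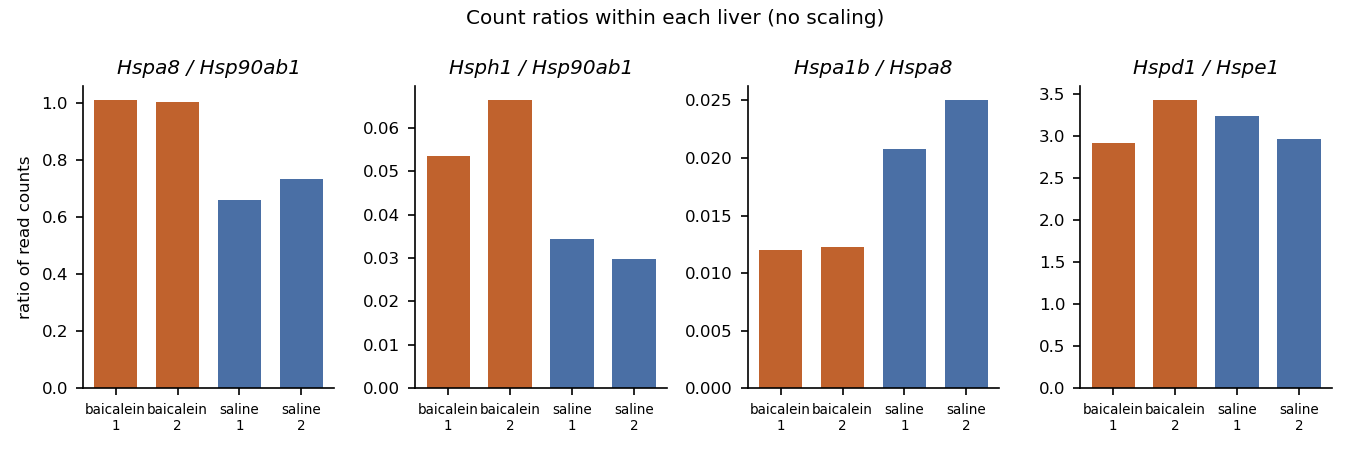
Ratio of read counts (y axis, from 0) of 4 gene pairs in baicalein livers 1 and 2 (orange) and saline livers 1 and 2 (blue). Hspa8 to Hsp90ab1 is 1.01 and 1.00 in baicalein livers against 0.659 and 0.733 in saline livers, Hspa1b to Hspa8 is lower in both baicalein livers, and Hspd1 to Hspe1 overlaps between the groups.

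The wider chaperone network was then examined in 9 lists, which held 89 genes, of which 85 were tested. In all, 6 were called higher and 2 lower, where 7.65% and 7.9% of all tested genes were, and the median log2 fold change was -0.03. Of 54 tested genes for heat shock factors, other cytosolic HSP70 and HSP40 proteins, HSP70 and HSP90 cofactors and the TRiC chaperonin, 1 passed. It was Fkbp5, an HSP90 co-chaperone of the glucocorticoid receptor and a target of that receptor. Fkbp5 had 86.4 and 78.3 CPM in baicalein livers, against 31.8 and 25.5 CPM in saline livers. It rose in both baicalein livers, by 1.52 on the log2 scale (SE 0.12, adjusted p = 1.28e-04, edgeR).

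The regulator itself, Hsf1, had 12.9 and 13.5 CPM in baicalein livers, against 15.0 and 14.9 CPM in saline livers (log2 fold change -0.18, unadjusted 95% interval -0.48 to 0.12, adjusted p = 0.407, edgeR). Hsf2, a related factor, had the smallest p of the 4 tested genes of its list (log2 fold change -0.33, adjusted p = 0.0895). Among the other cytosolic HSP40 genes the smallest p was that of Dnaja1, a farnesylated J-domain partner of HSP70, at 151 and 167 CPM in baicalein livers, against 124 and 127 CPM in saline livers (log2 fold change 0.34, adjusted p = 0.0515). In the remaining cytosolic lists the smallest p belonged to Hspa12a, a distant HSP70 relative (log2 fold change 0.90, adjusted p = 0.175), to Hspbp1, a nucleotide exchange factor (-0.43, adjusted p = 0.110), and to Cct3, a TRiC subunit (-0.30, adjusted p = 0.0578). None of these 3 passed.

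**Figure D4:**
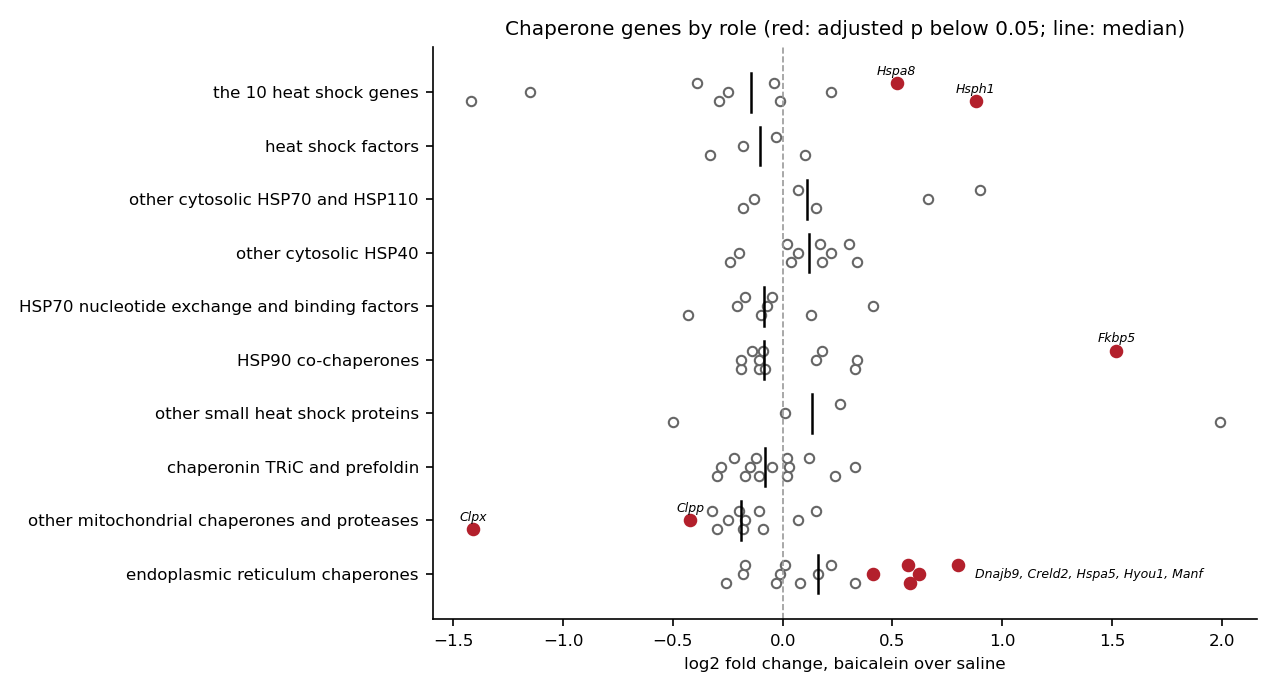
Log2 fold change, baicalein over saline (x axis), of every tested gene of the 10-gene heat shock list and of 9 further chaperone lists (rows; a dot is a gene, the black line the median of the list). Red dots passed an adjusted p of 0.05 and are named; outside the top row they are Fkbp5, Clpx, Clpp and 5 genes of the endoplasmic reticulum.

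Mitochondrial chaperones and proteases other than Hspd1 and Hspe1 had a median log2 fold change of -0.19, against 0.01 over all tested genes. Of 12 tested, 2 were called, both lower, where 7.65% of all tested genes were called higher and 7.9% lower. Clpx, the unfolding ATPase of the matrix protease ClpXP, fell to 73.9 and 79.7 CPM in baicalein livers, against 202 and 208 CPM in saline livers (log2 fold change -1.41, SE 0.10, adjusted p = 4.47e-05, edgeR). Clpp, the protease subunit, had 26.1 and 25.3 CPM in baicalein livers, against 35.8 and 32.8 CPM in saline livers (log2 fold change -0.42, SE 0.11, adjusted p = 0.0309, edgeR). The Clpp call was lost with any 1 liver left out and in 4 other alternatives, with adjusted p up to 0.182. Hspa9, the mitochondrial HSP70, gave a log2 fold change of -0.25 (adjusted p = 0.124, edgeR), the same size as that of Hspd1.

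Chaperones of the endoplasmic reticulum are the counterparts of the cytosolic ones and answer to the unfolded protein response rather than to heat shock factor 1. Of 15 tested, 5 were called higher and 10 did not pass, where 7.65% of all tested genes were called higher and 7.9% lower. Hspa5, the HSP70 of that compartment, rose to 888 and 903 CPM in baicalein livers, against 614 and 588 CPM in saline livers (log2 fold change 0.58, SE 0.10, adjusted p = 0.00523, edgeR). Hyou1, its HSP110 partner, rose to 325 and 282 CPM in baicalein livers, against 199 and 196 CPM in saline livers (log2 fold change 0.62, SE 0.11, adjusted p = 0.00534, edgeR). For the cytosol and the endoplasmic reticulum, an HSP70 gene and an HSP110 gene were thus called higher, Hspa8 with Hsph1 and Hspa5 with Hyou1. Hspa1a, Hspa1b and the 6 tested genes of the other cytosolic HSP70 and HSP110 list were not called. Among them were the other cytosolic HSP110 genes, Hspa4 and Hspa4l (log2 fold changes of -0.13 and 0.07). Like Hspa8, Hspa5 and Hyou1 were not called when either saline liver was left out (adjusted p of at most 0.196 and 0.107). Manf, encoding a secreted stress protein that binds the product of Hspa5, gave a log2 fold change of 0.80 (adjusted p = 0.00214) and Creld2 one of 0.57 (adjusted p = 0.0181, edgeR). Creld2 lost its call in 5 of 12 alternatives, among them each fit without 1 liver other than the one that left out baicalein 2, and the highest adjusted p was 0.130. Dnajb9, the remaining called gene, gave a log2 fold change of 0.41 (adjusted p = 0.0363, edgeR). It lost its call in 6 of 12 alternatives, with log2 fold changes of 0.29 to 0.52 over the 12. Hsp90b1, the HSP90 of the compartment, did not pass (log2 fold change 0.33, adjusted p = 0.0522, edgeR).

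Among the other small heat shock genes, Cryab, Hspb6, Hspb7 and the nearly silent Hspb3 had their higher values in the 2 livers with more muscle RNA. Cryab, encoding alpha B crystallin, had 4.47 and 35.7 CPM in baicalein livers 1 and 2, against 36.7 and 3.14 CPM in saline livers 1 and 2. Hspb6 had 7.08 and 33.3 CPM in baicalein livers, against 43.9 and 13.5 CPM in saline livers. Hspb7, a gene of heart and skeletal muscle, had 1 and 557 counts in baicalein livers, against 118 and 0 counts in saline livers. Hspb3 had 0 and 6 counts in baicalein livers, against 7 and 0 counts in saline livers, too few to be tested. For all 4 genes both livers with more muscle RNA, baicalein 2 and saline 1, stood above both others. Hspb8, which had the smallest p of the list, did not do so, at 188 and 172 CPM in baicalein livers, against 166 and 135 CPM in saline livers (log2 fold change 0.26, adjusted p = 0.204, edgeR). Hspb1 did not do so either, since saline 2, with little muscle RNA, stood above baicalein 2. Nor did Hspb2, also too low to be tested, with 1 and 3 counts in baicalein livers, against 1 and 0 counts in saline livers. The part of muscle RNA in the Hspb1 values was not tested.

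**Figure D5:**
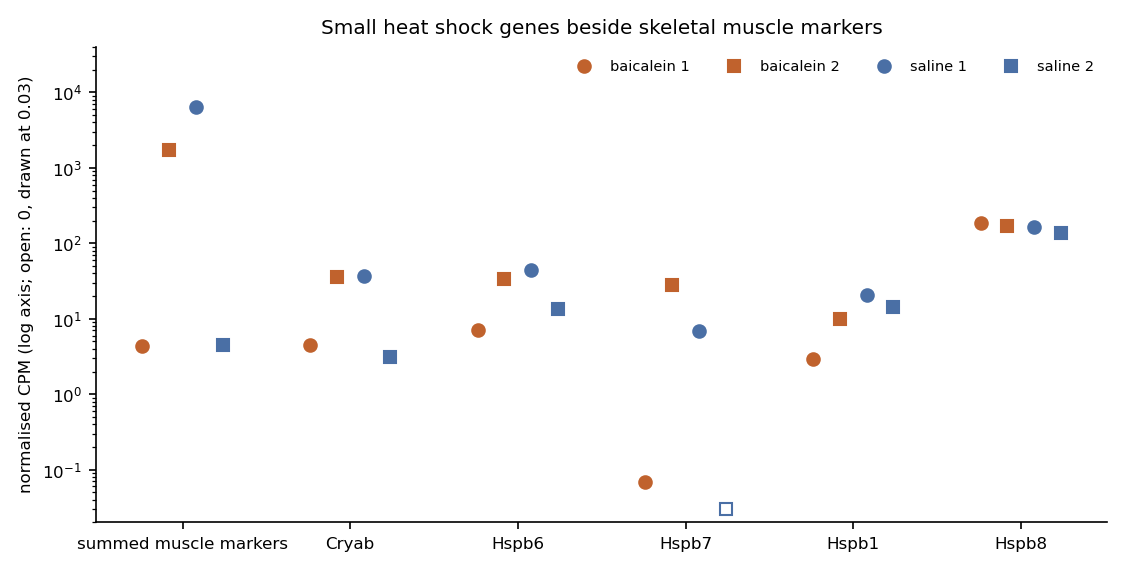
Normalised CPM on a log axis of 12 summed skeletal muscle markers and of 5 small heat shock genes in the 4 livers (orange, baicalein; blue, saline; circles, liver 1; squares, liver 2; the open square is a value of 0). Cryab, Hspb6 and Hspb7 are highest in baicalein 2 and saline 1, the livers with 1713 and 6372 CPM of muscle markers, while Hspb8 lies between 135 and 188 CPM in all 4.

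The cold-inducible RNA-binding protein genes Cirbp and Rbm3, which respond to low temperature, did not pass, with log2 fold changes of 0.09 and 0.09 (adjusted p = 0.670 and 0.680, edgeR). Among immediate early genes, which tissue handling and acute stress also induce, Jun had 48.1 and 47.0 CPM in baicalein livers, against 125 and 126 CPM in saline livers (log2 fold change -1.40, adjusted p = 3.41e-05, edgeR). Dusp1, Egr1 and Atf3 fell as well, with log2 fold changes of -1.29, -0.98 and -1.53. The other 4 genes of the list, Fos, Fosb, Junb and Ier2, did not pass (-1.30, -2.97, 0.13 and 0.16). The part of handling or acute stress in the lower Hspa1b and Hspb1 values of the same livers was not tested.

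The genes nearest to a member in pattern were found among 9273 tested genes with a mean of at least 5 CPM, by the root mean square distance between log2 CPM profiles centred over the 4 livers. Nearest to Hspa8 were Ski, Jarid2, Nktr, Rbms1 and Coro7, at distances of 0.010 to 0.018. Nearest to Hsph1 were Eef2k, Tfap4, Heg1, Epb41l2 and Lrrc8c, at 0.019 to 0.036. Nearest to Hspd1 were Strn, Pip5k1a, Cgnl1, Pon2 and Tgfbrap1, at 0.010 to 0.014, and nearest to the sum of Hspa1a and Hspa1b were Mtmr1, Mtif2, Syt1, Cped1 and Fbxw4, at 0.027 to 0.031. No chaperone was among these 20 genes. With 4 livers such profiles have few degrees of freedom, and many genes come this close.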

How the data were processed

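The authors deposited 1 table with a whole-number read count and an FPKM value per gene and liver. The build was mm10, per the submitters' processing notes; the sources used here do not give the aligner or the counting tool. Columns were tied to livers by title and groups came from the treatment labels. Positions of the 10 genes in the table matched GENCODE M21 (GRCm38) for 0 of 10, so positions were taken from GENCODE by gene ID. Deposited counts were tested with edgeR 4.0.16 (R 4.3.3) after filterByExpr and TMM, by a robust quasi-likelihood fit of baicalein against saline, two-sided, with Benjamini-Hochberg adjustment over 12657 genes and a threshold of 0.05. CPM are counts scaled to the normalised library size, for which 3 counts are 0.150 to 0.219 CPM. The deposited FPKM were used to compare levels between genes; for the genes of every list they matched counts over length and total within 1%. Exact permutation of 2 against 2 livers cannot go below p = 0.333, so p-values rest on spread shared across genes (limma 3.58.1 and DESeq2 1.42.0 served as alternatives). Counts of the 2 livers of a group differed beyond sampling noise (chi-square per degree of freedom 18.7 for baicalein and 23.4 for saline). The fit was checked on simulated data.

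Named were all 10 members, Hsf1, from each chaperone list the called genes of smallest p (at most 4) or else the gene of smallest p, and the 5 nearest genes in pattern of 4 profiles. Dnajb9, Hspa9, Hsp90b1, Hspa4, Hspa4l, Cryab, Hspb2, Hspb3, Hspb6, Hspb7 and the hepatocyte markers were added after their values were seen. The members and lists were chosen with earlier results of these data known. Tf was not matched by symbol among the hepatocyte markers.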

Additional observations from a re-analysis of the deposited data

How the results depend on the processing

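Across all tested genes, 968 were called higher and 1000 lower. The counts were 632 higher with limma-voom, 531 and 601 under the replicate block, and 521 to 665 higher and 535 to 663 lower with 1 liver left out. With library totals in place of TMM, 60.2% of calls were higher, against 49.2% with TMM. Of the heat shock genes, 2 were called higher and 0 lower; the counts were 1 higher under the replicate block, where Hsph1 was lost (adjusted p = 0.0981), 1 lower with DESeq2, and 1 to 2 higher and 0 to 1 lower with 1 liver left out. Of the other chaperone lists, 6 were called higher and 2 lower; the counts were 2 to 5 higher and 1 lower with 1 liver left out, 4 lower with DESeq2, and 1 lower with limma-voom, the replicate block or library totals. Same-numbered livers deviated in opposite directions (r = -0.771 over genes), and crossed numbers gave 0.771, the opposite by construction with 2 livers a group. The livers with more muscle RNA, baicalein 2 and saline 1, carry different numbers. The correlation therefore cannot decide whether the numbers pair the livers. Crossed pairs as a block, an alternative chosen like library totals after seeing the data, called 1809 higher and 1689 lower, 3 members lower, and 12 and 8 of the other chaperone genes, and the summed Hspa1a and Hspa1b passed at -0.43. The log2 fold change of Dnajb1 (-0.04) was 0.05 with library totals. That of Hsp90ab1 (-0.01) was 0.07 with library totals and -0.08 to 0.04 with 1 liver left out. Leaving out a liver also removes a degree of freedom; the cause of the other shifts was not tested. Depth limits Hspa1a, with at most 24 counts.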
